A study of Arabidopsis thaliana with 9 samples.

Results

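The cyp78a5,7 double mutant was compared with wild type over all probe sets of the array. The comparison used 6 of the 9 arrays of the study, 3 of cyp78a5,7 and 3 of wild type, chosen by their genotype labels alone. The other 3 arrays were of amp1-13, a mutant of the putative carboxypeptidase AMP1. All plants were Col-0, and the seedlings were 10 days old and were harvested whole. They had grown under long days in multi-well plates, in liquid half-strength Murashige and Skoog medium with sucrose, to which DMSO had been added for wild type and both mutants alike. The double mutant combines insertion lines of CYP78A5 and CYP78A7, ordered from a stock centre, so each of the 2 genes was represented by a single allele. The arrays of a genotype are biological replicates per the labels. RNA of whole seedlings was measured, so a lower number of cells of a type and less RNA per cell cannot be told apart.

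CYP78A5, also known as KLU, and CYP78A7 encode related cytochrome P450 monooxygenases. CYP78A5 is known as a promoter of organ growth that acts from the border of the shoot meristem, and its loss shortens the interval between leaves. The enzymes can oxidize fatty acids in vitro, but their substrates in the plant are not known. AMP1 mutants share the enlarged shoot meristem and the fast leaf formation of the double mutant.

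Signals are given as deposited, on a linear scale that is the same for all arrays but not comparable between probe sets. The median signal was 31.1 to 38.9 on the 9 arrays, and arrays of the same genotype correlated at 0.964 or more over all probe sets. The lowest of these correlations was between cyp78a5,7 replicates 1 and 3. Fold changes were taken on log2(signal + 16) after quantile normalization, with limma fitted to the 9 arrays. The offset of 16 makes the changes of dim probe sets smaller. Called probe sets are those that changed by 2-fold or more with an adjusted p under 0.05. Over all 22746 probe sets the median change was -0.02 on the log2 scale.

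In cyp78a5,7, 995 probe sets were higher (4.37% of those tested) and 601 were lower (2.64%) than in wild type. Together these were 7.02% of the probe sets, and 23.8% passed the adjusted p without the fold threshold. The rises were larger than the falls. Of the called probe sets, 251 rose and 39 fell by at least 4-fold, and 69 rose and 4 fell by at least 8-fold. The 3 cyp78a5,7 arrays all lay above the wild type arrays for 989 of the rises and all below for 600 of the falls. Over all probe sets, 14.0% had all mutant arrays above wild type and 19.8% all below, 33.8% together. The share of called probe sets grew with the level. Of 5 equal groups by the mean log2 level, the dimmest, of 4550 probe sets, had no call, while the brightest had 9.01% higher and 5.67% lower. The 3 mutant arrays did not move by the same amount. Over the called rises the mean log2 difference from wild type was 1.56 on cyp78a5,7 replicate 1, 1.8 on replicate 2 and 1.81 on replicate 3, and over the called falls it was -1.2, -1.31 and -1.52. When each wild type or cyp78a5,7 array was left out in turn, 856 to 1136 probe sets were higher and 438 to 900 lower.

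**Figure D1:**
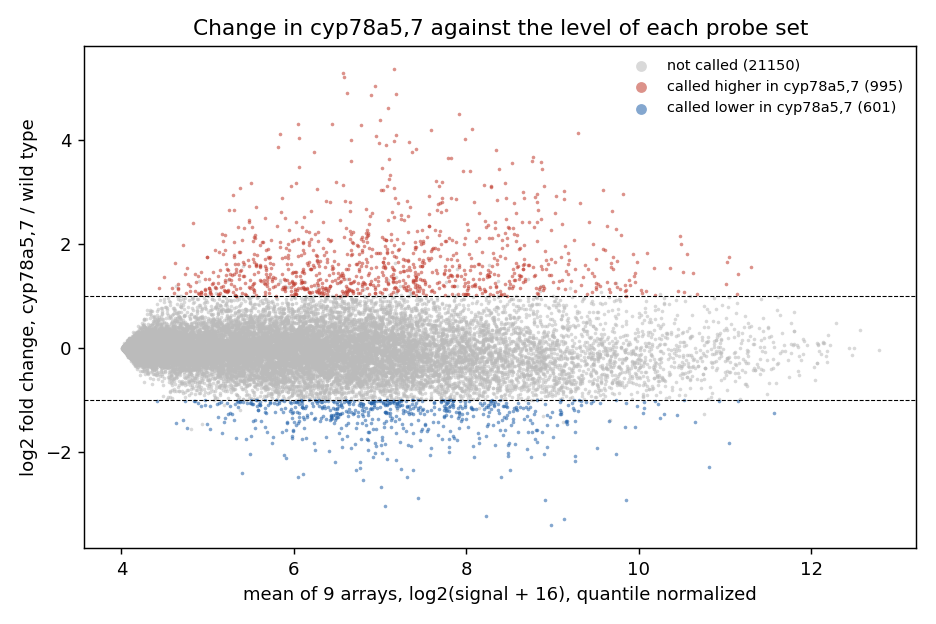
Each point is 1 of 22746 probe sets, with its mean log2 level over 9 arrays on the x axis and its log2 fold change in cyp78a5,7 on the y axis. The 995 called rises reach 5.36 and the 601 called falls reach -3.41, and the dashed lines mark 2-fold.

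The platform annotation gave 1 gene to 13513 probe sets, of which 3.58% were higher and 2.65% lower, 6.23% together. A further 820 probe sets were named only through the study's table of genes changed on these same arrays, and 610 of them were called. Counts over them carry their selection with them and are not independent evidence of a direction. The 44 gene lists used below were chosen with earlier results of these data known. They reached 442 measured genes, meaning genes with a named probe set, of which 199 were named by the annotation. Over the 200 annotated probe sets of all lists, 14.0% were called higher and 6.0% lower. Of the 243 list probe sets named only through the study's table, 205 were called. No probe set could be named for CYP78A5, AMP1, LAMP1, WUS or AGO1. This is a limit of the names used here and does not show that the array lacks these genes. The study cites its table of changed genes for a strong rise of CYP78A5 in amp1.

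With the names used here, only CYP78A7 of the 2 mutated genes could be looked up on these arrays. By semiquantitative RT-PCR, the study detected no CYP78A5 fragment in cyp78a5 seedlings and no CYP78A7 fragment in cyp78a7 seedlings. The array signal of CYP78A7 was 11.5, 9.46 and 12.7 on the wild type arrays and 21.2, 25 and 37.1 on the cyp78a5,7 arrays, so it was higher, not lower, on every mutant array. The log2 fold change was 0.66 with an SE of 0.21 (limma, adjusted p = 0.0535) and did not pass. The place of its probes relative to the insertion is not given in the sources used here, so this probe set does not check the label. The relatives CYP78A9 and CYP78A6 had log2 fold changes of -0.43 and -0.74, and neither was called. Among 40 annotated genes beside CYP78A5, 20 on either side, limma called 0 (12 had an unadjusted p under 0.05), and among the 40 beside CYP78A7 3 were higher and 1 was lower (18 had an unadjusted p under 0.05). By chromosome, 3.1% to 3.79% of the annotated probe sets were higher and 2.39% to 2.85% lower. Of 69 annotated probe sets of the plastid genome 6 were higher and 0 lower, with a median log2 fold change of 0.35.

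Genes of the jasmonate pathway led the rises. Jasmonate is a wound hormone made from plastid fatty acids, its active form is a conjugate with isoleucine, and JAZ proteins repress the response until they are degraded. Of the 15 largest rises, 7 were in the lists of jasmonate signalling, synthesis and turnover. CYP94B3, which oxidizes the active conjugate as CYP94C1 does, had a signal of 36.9, 10.0 and 13.3 in wild type and 829, 1133 and 1069 in cyp78a5,7. The groups were far apart, at a log2 fold change of 4.87 with an SE of 0.44 (limma, adjusted p = 0.000358). The repressor gene JAZ10 read 22.8, 17.6 and 7.75 in wild type and 694, 1051 and 1005 in the mutant, again with no overlap. The choice of the 15 largest rises required this for both genes. LOX4, a lipoxygenase of the first step of synthesis, went from 23.8, 25.7 and 15.7 to 939, 849 and 312. Its mutant array 3 was lower than the other two but still above all wild type arrays, and LOX4 rose by 4.09 on the log2 scale. In all, 11 of 13 measured signalling genes and 12 of 13 measured genes of synthesis and turnover rose, and none fell. The exceptions were MYC3, MYC4 and the methyltransferase gene JMT at 0.17, -0.62 and -0.71. Only 4 of the 26 were named by the annotation, of which OPCL1, an enzyme that activates the precursor in peroxisomes, rose by 2.47 and the other 3 are those exceptions. The other 22 came from the study's table, so their direction is not independent evidence.

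Other genes among the 15 largest rises were not in the jasmonate lists, which does not show that they lack a role in that pathway. EP3 encodes a chitinase, and its signal was 15.6, 1.86 and 9.15 in wild type and 189, 456 and 1238 in cyp78a5,7. PP2-A5, a phloem protein gene, read 81.9, 50.0 and 48 in wild type and 1090.3, 1224 and 1827 in the mutant. AT2G38240 had 64.4, 5.55 and 0.723 in wild type and 440.2, 1176 and 2640.3 in the mutant, a log2 fold change of 5.21 with an SE of 0.73 (limma, adjusted p = 0.00203). In each of these the 2 genotypes did not overlap, which the choice of genes required, and the mutant arrays differed among themselves. AT5G05600, AT5G12340 and AT2G34930, named here by locus only, rose by 4.50, 4.39 and 4.31. Replicate 1 was the lowest mutant array for 11 of the 15 genes, RAP2.6, EP3 and AT2G38240 among them. Replicate 3 was the lowest for the other 4, which were JAZ5, JAZ7, LOX3 and RRTF1. RRTF1, a redox-responsive transcription factor gene, was at 1329, 1135 and 249 on the 3 mutant arrays.

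**Figure D2:**
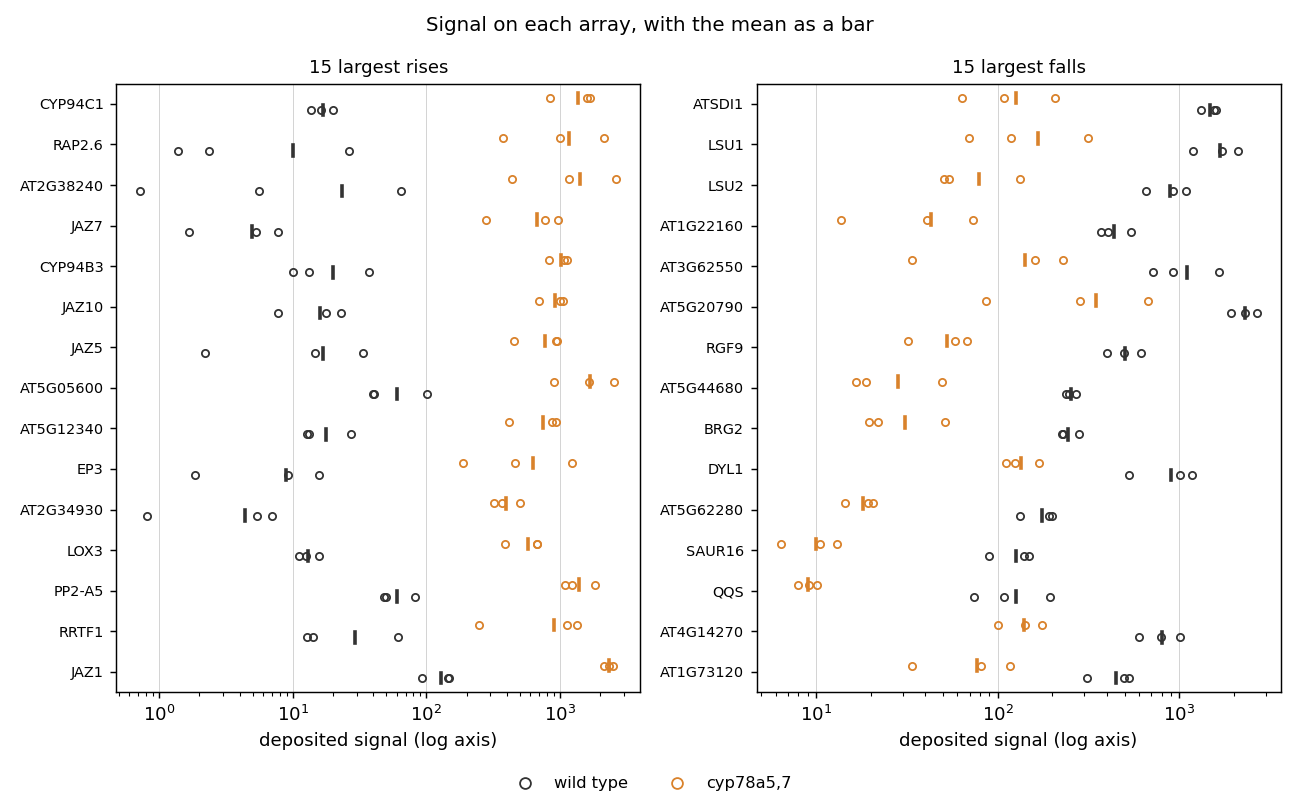
Deposited signals (log axis) of the 15 named genes with the largest rises and the 15 with the largest falls, with 1 circle for each of 3 wild type and 3 cyp78a5,7 arrays and a bar at the mean. For all 30 genes the circles of the 2 genotypes do not overlap, which the choice of genes required.

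Nitrate genes rose together. Nitrate is taken up by NRT transporters, reduced by nitrate reductase and nitrite reductase and then built into amino acids, and these genes are induced by nitrate itself. The nitrite reductase gene NIR1 had a signal of 98.4, 92.6 and 73.7 in wild type and 1042, 1242 and 2166 in cyp78a5,7. All mutant arrays were far above wild type, and the log2 fold change was 3.81 with an SE of 0.27 (limma, adjusted p = 0.000144). The nitrate reductase gene NIA1 went from 104, 145 and 87 to 1159, 1360.1 and 2267, with 3.67 on the log2 scale. The second nitrate reductase gene NIA2 rose less, by 1.81. Genes that supply reducing power and cofactors rose too, with G6PD3, a plastid glucose-6-phosphate dehydrogenase, at 2.82 and UPM1, an enzyme of sirohaem synthesis, at 2.42. Of the transporter genes, NRT1.8 rose by 2.71, NRT3.1 by 2.57, NRT2.1 by 1.75 and NRT1.7 by 1.58. The repressors LBD37 and LBD39 rose by 2.07 and 1.43, whereas LBD38 stood at 0.94 and was not called. In total 18 of 20 measured genes rose and 0 fell. Of these 20 only NRT2.5, a transporter gene of nitrogen starvation, was named by the annotation, and it stood at -0.53 (adjusted p = 0.192 from limma). The other 19 came from the study's table of changed genes, which chose them on these arrays.

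Sulphur genes moved in both directions. Of 11 measured genes 3 rose and 4 fell, all 7 named through the study's table, and ATSDI1, whose name was not in the list, fell too. ATSDI1 (SULPHUR DEFICIENCY-INDUCED 1), LSU1 and LSU2 are markers of sulphur limitation and had the 3 largest falls among the named genes. LSU1 had a signal of 1710.2, 1185 and 2115 in wild type and 314, 118 and 69.6 in cyp78a5,7, a log2 fold change of -3.29 with an SE of 0.41 (limma, adjusted p = 0.00122). LSU2 read 923, 652 and 1089 in wild type and 133, 54.3 and 50.9 in the mutant. In both, replicate 1 was the mutant array closest to wild type and no array overlapped, which the choice of the largest falls required. LSU4 fell too, at -1.08, as did APR2, a reductase of sulphate assimilation, at -1.26. In the opposite direction, the sulphate transporter gene SULTR1;2 read 105, 199.5 and 122 in wild type and 348, 622 and 1643 in the mutant, a rise of 2.20 on the log2 scale. APK2, a kinase that activates sulphate for the sulphation of glucosinolates and other products, rose by 1.58 with an SE of 0.10. SERAT2;1, which makes the precursor of cysteine, rose by 1.51. The 4 annotated members were not called, with BGLU28 at -1.31, and APS3, SIR and APS4 at 0.49, 0.60 and 0.69. The call of LSU4 was lost with an offset of 64 and without wild type replicate 3, where its log2 fold changes were -0.50 and -0.94.

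Phosphate genes also moved in both directions. SPX1 encodes an inhibitor of the phosphate starvation response that is itself induced by starvation. Its signal was 3838, 3109 and 4163 in wild type and 1408, 668 and 291 in cyp78a5,7, and it fell by 2.29 on the log2 scale with an SE of 0.47. The mutant arrays spread widely among themselves but stayed below wild type. SPX2 and the glycerol-3-phosphate permease gene G3Pp1 stood at -1.39 and -1.75, and both fell. MGD1, which makes galactolipids, and the transcription factor gene WRKY75 rose by 1.57 and 1.42. WRKY75 was dim, with 27.1, 56.1 and 64.4 in the mutant, and its call was lost with an offset of 64, where its log2 fold change was 0.65. The 5 measured genes of the list were all named through the study's table, so the count of 2 rises and 3 falls says nothing of the other members.

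**Figure D3:**
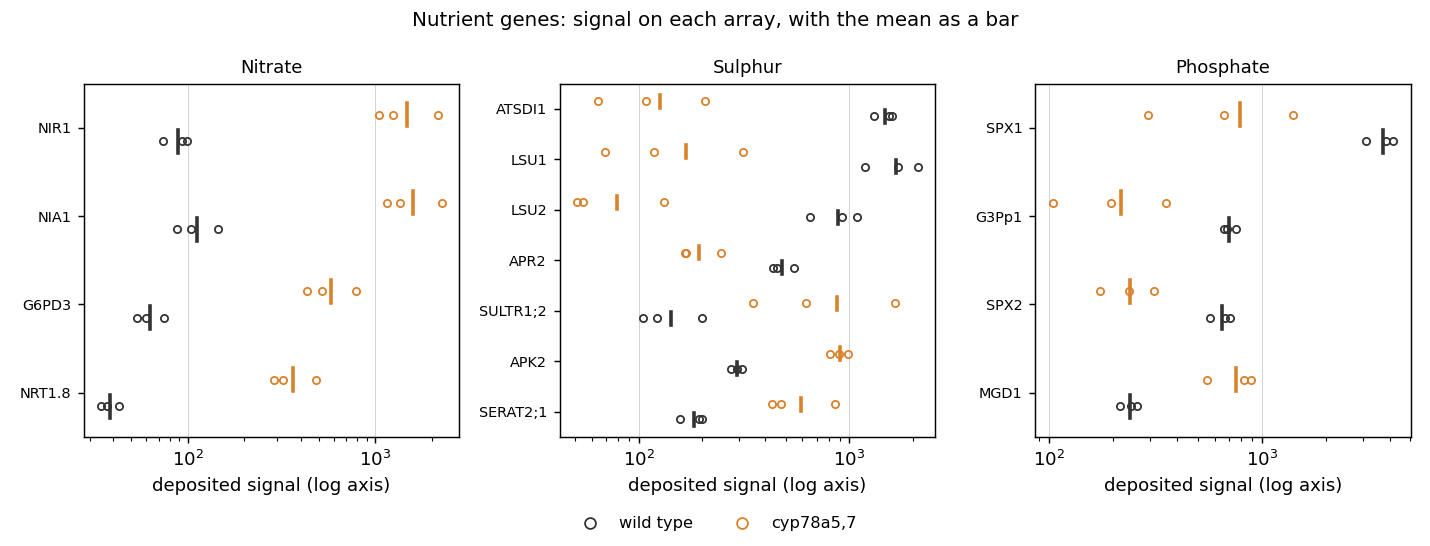
Deposited signals (log axis) of nitrate, sulphur and phosphate genes on the 3 wild type and 3 cyp78a5,7 arrays, with a bar at each mean. The nitrate genes lie higher in the mutant, ATSDI1, LSU1, LSU2, SPX1 and G3Pp1 lie lower, and SULTR1;2, APK2, SERAT2;1 and MGD1 lie higher.

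Genes of tryptophan and indole glucosinolate synthesis rose. Indole glucosinolates are defence compounds made from tryptophan through an aldoxime that CYP79B2 and CYP79B3 form and CYP83B1 uses. CYP79B2 had a signal of 94.9, 126 and 76.9 in wild type and 387, 409 and 668 in cyp78a5,7, a log2 fold change of 2.05 with an SE of 0.21 (limma, adjusted p = 0.000538). CYP79B3 and CYP83B1 rose by 1.17 and 1.53. ASA1, which opens the branch to tryptophan, rose by 1.82 and the tryptophan synthase gene TSA1 by 1.29. CYP81F2, which modifies the indole ring, rose by 1.82. Of 14 measured genes 12 rose and 0 fell, and the only annotated one, the glucosyltransferase gene UGT74B1, rose by 1.28, while the other 13 came with the selection of the study's table. GTR1, a transporter of glucosinolates named by the annotation, read 107, 109.7 and 84.1 in wild type and 861, 1097 and 1004 in the mutant and rose by 3.09 with an SE of 0.18. Of the other 4 annotated genes of the aliphatic glucosinolate list, FMO fell, at -1.06, and 3 were not called. The call of FMO was lost with an offset of 64 and without wild type replicate 2 or cyp78a5,7 replicate 2, at -0.89, -0.95 and -0.86. CYP81F3 rose by 1.59, but not with an offset of 64, where it stood at 0.89.

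Defence genes beyond jasmonate were also higher. In the list of salicylic acid and cell death, 16 of 18 measured genes rose and 0 fell. PR2, a glucanase gene, had a signal of 1.20, 5.75 and 1.77 in wild type and 109.7, 98.7 and 111 in cyp78a5,7, and PR1 had 13, 16.5 and 12.5 and 86.3, 151 and 114. Both genes were near the bottom of the scale in wild type, and on the log2 scale they rose by 2.71 and 2.08. The synthesis gene ICS1 rose by 1.39, the receptor gene NPR3 by 2.10 and WRKY38 by 3.17. The study's table named 17 of the 18, so the count carries its selection and cannot be set against the 4.37% of all probe sets. SAG101, the only annotated member, rose by 1.10 and lost its call with an offset of 64, where it stood at 0.75. Of the rapid wound, calcium and touch factors, 27 of 34 measured genes rose and 0 fell. The study's table gave 27 of the 34. Of the 7 annotated ones, 4 rose, which were WRKY22, WRKY6, WRKY53 and the calmodulin-like gene CML37, by 3.02, 2.18, 1.98 and 1.73. The other 3 were CML38, CML42 and CML41, at 0.61, 0.31 and -0.84. WRKY48 read 31, 39.7 and 34.6 in wild type and 437, 503 and 354 in the mutant, and BCB, a blue copper protein gene, read 212, 46.9 and 77 and 1188, 1434 and 883.

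Genes of detoxification were higher in part. Tau class glutathione transferases conjugate reactive compounds to glutathione. GSTU5 had a signal of 88.8, 40.5 and 69 in wild type and 575, 1137 and 1454 in cyp78a5,7, and GSTU6 had 75.2, 30.01 and 37.7 and 261, 704 and 1214. The log2 fold changes were 3.64 (SE 0.37) and 3.32 (SE 0.51), and in both the lowest mutant array was replicate 1. GRX480, a glutaredoxin gene named by the annotation, rose by 3.63. Of the 13 annotated members of the list, 3 rose (GRX480, GSTU22 and GSTU25) and 10 were not called, among them GSTU20 and GSTU16 at -0.99 and -0.95. Of the 11 members named through the study's table, 9 rose and VTC2, an enzyme of ascorbate synthesis, fell, at -1.15. The call of VTC2 was lost with an offset of 64 and without cyp78a5,7 replicate 3, at -0.92 and -0.96. With the values of replicate 3 left out, 0 members of the list were lower, and without wild type replicate 2 or cyp78a5,7 replicate 1 there were 3.

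Cold and dehydration genes mostly rose. Of 17 measured genes 10 rose and 2 fell, and the study's table named 11 of the 17. Those 11 were selected as changed on these arrays, so the counts cannot be set against the 4.37% and 2.64% of all probe sets. Of all annotated probe sets, 3.58% were higher and 2.65% lower. Among the 6 annotated members, the dehydrin genes XERO2 and COR47 and the zinc finger gene ZAT10 rose by 3.11, 1.43 and 1.43. COR15A stood at 1.56 (adjusted p = 0.0568 from limma) and COR15B at -0.03, and neither was called. XERO2 read 319.8, 152 and 211 in wild type and 870.1, 2386 and 3120.3 in cyp78a5,7. ERD7, a dehydration-induced gene, rose by 2.77 with an SE of 0.19, and the CBF relative DDF1 by 3.47 with an SE of 0.71. The 2 falls were CBF3, a central factor of the cold response, at -1.25, and GOLS2, a galactinol synthase gene, at -1.64. Both fall calls were lost with an offset of 64, at -0.59 and -0.80, and that of GOLS2 also with no offset, at -2.87.

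In the auxin list 11 of 30 measured genes were lower, 9 of them named through the study's table. Auxin promotes cell growth, and the SAUR and Aux/IAA genes are among its early targets. SAUR16 had a signal of 148, 89.9 and 139 in wild type and 10.5, 6.38 and 13 in cyp78a5,7, a log2 fold change of -2.43 with an SE of 0.29 (limma, adjusted p = 0.000995). IAA4 read 277, 169 and 285 in wild type and 60.3, 51 and 45.1 in the mutant and fell by 1.89 on the log2 scale. HAT2, an auxin-induced homeobox gene named by the annotation, read 253, 227 and 235 and 67.7, 50.9 and 52.3 and fell by 1.81. No array of the mutant overlapped with wild type in these genes, which for SAUR16 the choice of the largest falls required. Of the other 19 measured genes, 1, SAUR6, rose, by 1.25, and 18 were not called. Among the 16 annotated members only HAT2 and IAA29 were called, both lower, and the annotated median was -0.24. By comparison, 2.65% of all annotated probe sets were lower. The 14 that were not called included the synthesis genes YUC2, YUC4 and YUC6 at -0.70, -0.07 and -0.35. With an offset of 64 the calls of SAUR6 and SAUR15 were lost, at 0.83 and -0.86, and that of SAUR6 also without cyp78a5,7 replicate 3, at 0.91.

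Genes of the brassinosteroid list, which is about another growth hormone, moved both ways, with 4 of 10 measured genes higher and 4 lower. The study's table named 7 of the 10, with 3 of the rises and 3 of the falls, so the counts carry its selection. Of the 3 annotated members EXO rose, BRH1 fell and BIM1 was not called, at 0.64. The higher ones were EXO and its relatives EXL1, EXL2 and EXL5, at 3.02, 3.14, 1.83 and 2.05. EXO was named by the annotation, with 184, 134 and 134 in wild type and 1363, 1148 and 1413 in the mutant. The lower ones were the transcription factor genes BEE2 and BEE3, the synthesis gene BR6OX2 and the RING finger gene BRH1, the last at -1.63. BEE3 read 278, 162 and 197 in wild type and 34.5, 29.1 and 23 in cyp78a5,7. BEE2 and BR6OX2 lost their calls with an offset of 64, at -0.91 and -0.94.

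In the gibberellin list, GA2OX6, which inactivates the hormone, went from 80.9, 44 and 89 in wild type to 1010.4, 1497 and 1558 in cyp78a5,7, and rose by 4.01 with an SE of 0.36. RGL3, a repressor of gibberellin responses, rose by 1.43 from a signal under the offset. GASA6, a gibberellin-induced gene, fell, at -1.61, as did the repressor gene GAI and SLY1, the F-box gene for the removal of such repressors, at -1.07 and -1.09. The calls of RGL3, GAI and SLY1 were lost with an offset of 64, at 0.59, -0.81 and -0.85. That of GAI was also lost without wild type replicate 2, at -0.96. That of SLY1 was lost when wild type replicate 1 or 3 or cyp78a5,7 replicate 1 or 2 was left out, and with the 6 arrays alone, at -0.98, -0.91, -0.87, -1.13 and -1.10. The receptor genes GID1A, GID1B and GID1C were not called, at -0.56, 0.86 and -0.15. They and SLY1 were the 4 annotated members, and the other called genes of the list came from the study's table.

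Enzymes and proteins that loosen the cell wall moved in both directions. Of 29 measured genes 8 rose and 8 fell, and of the 19 annotated ones 4 rose and 2 fell. By comparison, 3.58% of all annotated probe sets were higher and 2.65% lower. The expansin-like genes EXLA1, EXLA2 and EXLA3, all annotated, rose by 2.80, 1.46 and 1.62. EXLA1 read 157, 121 and 157 in wild type and 1149.8, 1386 and 785 in cyp78a5,7. The expansins of the main family did not share this, since EXPA8 and EXPA4 fell, at -1.84 and -1.24, as did EXPA1, EXPA11 and EXPA14 at -1.72, -1.87 and -1.06. The other 8 annotated EXPA probe sets were not called. Among the xyloglucan enzymes, XTH22, XTH23 and the annotated XTH18 rose by 2.96, 2.76 and 2.26, and XTH24 and XTH25 were also higher, at 1.41 and 1.05. In the same family XTH5, XTH6 and XTH17 fell, at -1.25, -1.23 and -1.0. XTH18 read 236, 228 and 193 in wild type and 914, 1624 and 874 in the mutant. The number of lower members was 5 without wild type replicate 3. XTH5 lost its call with an offset of 64, at -0.80.

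Wall proteins moved in both directions as well, with 9 of 16 measured genes higher and 3 lower. The study's table named 14 of the 16, with 8 of the rises and all 3 falls, so the counts carry its selection. Of the 2 annotated members 1 was not called, CSLC4 at 0.63. PME41, a pectin methylesterase gene named by the annotation, rose by 2.59, and the arabinogalactan protein genes AGP1 and AGP20 by 1.99 and 1.49. AGP13 and AGP22 fell, at -1.78 and -1.69. AGP22 read 574, 346 and 605 in wild type and 133, 174 and 118 in cyp78a5,7, with no overlap. The pectin methylesterase inhibitor family gene PME1 was lower at -1.14, and lost its call with an offset of 64 and without cyp78a5,7 replicate 3, at -0.89 and -0.99.

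In the cell cycle list 5 genes were lower. Of 11 measured genes 0 rose and 5 fell. The study's table named 5 of the 11 and 4 of the falls, so the count and the list median of -0.82 carry its selection. Of the 6 annotated genes, with a median of -0.18, 1 fell, and 2.65% of all annotated probe sets were lower. The 5 falls were 1.03 to 1.28 on the log2 scale in size. Of these, 4 were of inhibitors of division, namely KRP1 and SMR1, the annotated SIM, and KRP2, which was named after its value was seen, at -1.28, -1.03, -1.03 and -1.03. The other was the cyclin gene CYCD3;3 at -1.03. SIM read 151, 226 and 213 in wild type and 61.9, 96.2 and 117 in cyp78a5,7. The count fell to 1 without wild type replicate 3 and to 2 without cyp78a5,7 replicate 1. With an offset of 64 it fell to 0, so the calls of all 5 genes were lost. KRP1, SMR1, SIM and CYCD3;3 then stood at -0.82, -0.74, -0.77 and -0.74. The call of SIM was also lost with the values as deposited and without wild type replicate 2, at -1.0 and -0.94, and that of CYCD3;3 without wild type replicate 1 or cyp78a5,7 replicate 3, at -0.99 and -0.98. The annotated mitotic kinase genes AUR1, AUR2 and AUR3 stood at -0.10, -0.30 and -0.26, and MCM7, which unwinds DNA for replication, at -0.10.

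The shoot meristem list gave 1 call among 7 measured genes. RAP2.6L, a transcription factor gene known from shoot regeneration, read 30.7, 24.9 and 26.9 in wild type and 58.3, 105 and 137 in cyp78a5,7. It rose by 1.30 and lost its call with an offset of 64, at 0.78. CLV3, which encodes the stem cell peptide of the shoot meristem, was at 0.687, 0.705 and 0.56 in wild type and 5.17, 2.15 and 0.441 in the mutant, all far below the offset, so a change in few cells was not detectable here. PHV, a homeobox gene of the upper leaf side, read 59.2, 87.2 and 75.8 and 61.2, 58.7 and 57.3, which overlap, and its log2 fold change was -0.29 (adjusted p = 0.0595 from limma). LAS, JAG and YAB3, genes of axillary meristems and leaf outgrowth, stood at 0.37, -0.07 and 0.21. ZPR1 read 45.9, 52 and 70.8 in wild type and 23.9, 23.5 and 19.5 in the mutant, with no overlap, and its log2 fold change of -0.93 passed the adjusted p (0.00627 from limma) without reaching 2-fold. Of the 7 measured genes of the miRNA pathway and its targets, SMZ, a repressor of flowering, rose by 1.38 and the others, among them SE and AGO7 at 0.16 and -0.09, were not called.

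Cytokinin signalling genes AHP3 and AHP4, which encode phosphotransfer proteins, were lower at -1.48 and -1.41. AHP3 read 727, 387 and 737 in wild type and 202, 197 and 196 in cyp78a5,7, with the 3 mutant arrays almost equal. CKX4, which breaks the hormone down, and CRF3, a response factor, were higher at 1.66 and 1.04. Of 7 measured genes of the list 2 rose and 2 fell, all named through the study's table, which selected them. The 2 annotated members ARR15 and ARR16 were not called, at -0.12 and -0.63, nor was ARR3, at -0.98. The calls of AHP4, CKX4 and CRF3 were lost with an offset of 64, at -0.81, 0.80 and 0.49. That of CRF3 was also lost with no offset, with the 6 arrays alone, and on leaving out wild type replicate 1 or 2 or cyp78a5,7 replicate 2 or 3, at 1.82, 1.03, 0.90, 1.04, 1.16 and 0.69.

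Sugar genes were mixed. The hexose transporter gene STP13 read 81.3, 103 and 88.2 in wild type and 731, 797 and 1464 in cyp78a5,7 and rose by 3.17 with an SE of 0.25. STP4 and TPS7, a trehalose phosphate synthase family gene, rose by 1.61 and 1.70, and of the 12 annotated members of the list, SWEET16, a vacuolar sugar transporter gene, rose by 1.63. QQS, which affects starch and protein content, was the only fall, with 195, 74.1 and 109 in wild type and 9.14, 7.92 and 10.2 in the mutant. Without cyp78a5,7 replicate 1 there were 3 falls in this list. DYL1, a gene associated with dormancy and low sugar, was among the 15 largest falls, and read 1175, 528 and 1012 in wild type and 169.7, 125 and 111 in cyp78a5,7.

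Genes of protein and organelle turnover were divided. ATG8 proteins coat the membranes of autophagy, and 2 of 5 measured ATG8 genes, ATG8F and ATG8E, fell, at -1.52 and -1.32. ATG8F read 1766, 1459 and 1814 in wild type and 687, 599 and 357 in cyp78a5,7. ATG8A, ATG8B and ATG8H were not called, at -0.84, -0.12 and -0.60. The ubiquitin ligase genes PUB22 and PUB23 rose by 2.32 and 2.05. All 7 of these genes were named by the annotation.

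Genes of chloroplast functions differed by list. None of 9 measured genes of light harvesting and the photosystems was called by limma, with log2 fold changes from -0.61 to 1.02, and 5 had an unadjusted p under 0.05. Of all probe sets 7.02% were called, so a list of 9 cannot be set apart by a count of 0. Of the 9, 8 were annotated. Of 6 measured genes of carbon fixation 3 were called, all named through the study's table. The carbonic anhydrase genes CA1 and BCA4 rose by 1.66 and 1.40 and CP12-2, a regulator of the Calvin cycle, fell, at -1.62. CP12-2 read 598, 339 and 437 in wild type and 181, 152 and 81.2 in cyp78a5,7. Of 10 measured genes of chlorophyll and carotenoid synthesis, 9 of them annotated, 3 were called. HEMA2 rose by 1.87 and HEMA1 by 1.11, both enzymes of the first committed step. CHLM, a later step on the way to chlorophyll, was lower at -1.01. The call of HEMA1 was lost with an offset of 64 and without cyp78a5,7 replicate 1, at 0.86 and 0.91. That of CHLM was lost with an offset of 64, with the 6 arrays alone, and on leaving out wild type replicate 1 or 3 or cyp78a5,7 replicate 2 or 3, at -0.89, -1.02, -0.82, -0.99, -1.02 and -0.77.

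Of 10 measured genes of the cuticle and fatty acid oxidation 5 rose and 0 fell, all 5 named through the study's table. The 2 annotated members, SHN3 and WSD1, were not called, at -0.16 and 0.08. MYB16 and CYP77A6 stood at -0.80 and -0.57 and passed the adjusted p (0.0101 and 0.0108 from limma) without reaching 2-fold. MYB96, an activator of wax synthesis, rose by 2.20, and KCS1 and KCS20, which elongate fatty acids, by 2.05 and 1.26. KCS1 read 206, 249 and 194 in wild type and 477, 1228 and 1428 in cyp78a5,7. The lipid transfer protein gene LTPG1 rose by 1.27, but lost its call without wild type replicate 3 or cyp78a5,7 replicate 2 or 3, at 1.18, 1.16 and 1.00. The count was 3 in each of these 3 fits. The 2 measured genes of protein lipidation, FCLY and STE24, were not called, at -0.32 and 0.01.

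**Figure D4:**
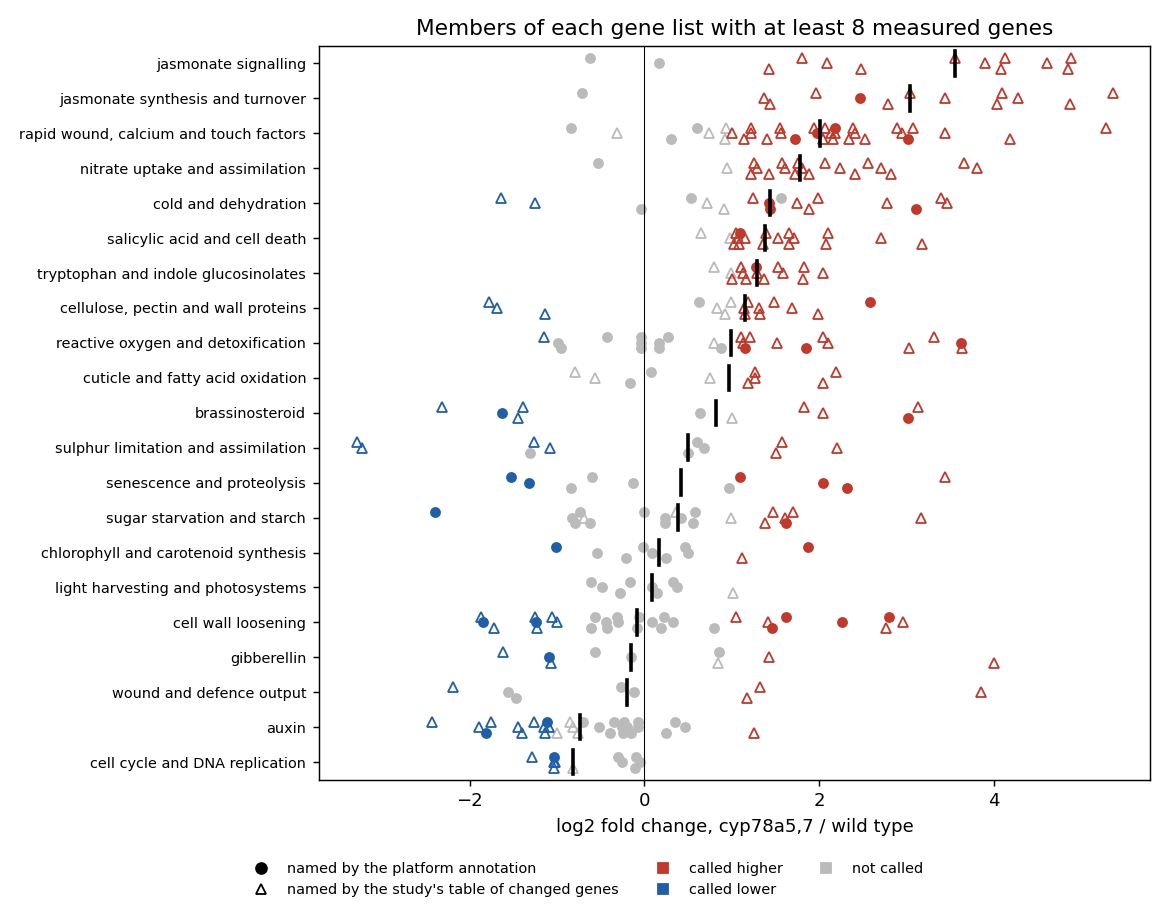
Log2 fold changes in cyp78a5,7 of the members of the 21 gene lists with at least 8 measured genes, sorted by the list median (black bar). Filled circles were named by the platform annotation, open triangles through the study's table of changed genes, and nearly all triangles lie away from 0 because that table chose them.

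The remaining large falls included genes of other kinds. RGF9, a root growth peptide gene, had a signal of 496, 401 and 615 in wild type and 67.9, 58.6 and 32.1 in cyp78a5,7, a log2 fold change of -2.90 with an SE of 0.29 (limma, adjusted p = 0.000489). BRG2, a RING finger gene, read 229, 280.2 and 225 in wild type and 51.5, 19.6 and 21.9 in the mutant. AT5G20790 was bright in wild type, with 2300.5, 1918 and 2664, and had 674, 285 and 86.3 in the mutant. AT1G22160, AT3G62550, AT5G44680, AT5G62280, AT4G14270 and AT1G73120 stood at -3.03, -2.92, -2.67, -2.48, -2.35 and -2.35. Replicate 3 was the lowest mutant array for 12 of the 15 largest falls and replicate 1 the highest for 12. Among genes of flowering, SVP, a repressor of flowering, and the root-expressed gene AGL12 fell, at -1.29 and -1.24, and AGL12 lost its call with an offset of 64, at -0.71.

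Smaller lists gave calls in either direction. Called genes of this paragraph that are not marked as annotated were named through the study's table, which selected them on these arrays. In phenylpropanoid and lignin synthesis 2 of 5 measured genes rose, the ligase gene 4CL5 by 1.99 and the annotated reductase gene CCR2 by 1.73, and CCR2 lost its call with an offset of 64, at 0.95. FER3, a plastid ferritin gene, rose by 1.43 and was the only call among 6 genes of iron and metals. The clock genes PRR5 and CDF1 rose by 1.61 and 1.29, while GI stood at 0.44, and CDF1 lost its call with an offset of 64, at 0.70. Of 4 measured hypoxia genes, HRE1, an ERF gene induced by low oxygen, fell, at -1.30, and HUP40 rose by 1.19, which was not called with an offset of 64, at 0.99. Without cyp78a5,7 replicate 1 the hypoxia list had 2 rises. MYB90, an activator of anthocyanin synthesis, was lower at -1.33, and the other 6 measured flavonoid genes, all annotated, were not called. The call of MYB90 was lost with no offset, with an offset of 64, with the replicate block and on leaving out wild type replicate 1 or 3 or cyp78a5,7 replicate 2 or 3, at -1.88, -0.75, -1.33, -1.31, -1.10, -1.17 and -1.19. Of 4 measured genes of heat shock and protein folding, HSFA7A fell, at -1.29, and the annotated genes BZIP60, a factor of the unfolded protein response, and HSP70-2, a chaperone, rose by 1.16 and 1.01. HSFA7A lost its call with an offset of 64, at -0.75, and BZIP60 without wild type replicate 2 or cyp78a5,7 replicate 1, at 0.99 and 0.97. That of HSP70-2 was lost with an offset of 64 and without wild type replicate 3 or cyp78a5,7 replicate 3, at 0.66, 0.98 and 0.87. In the abscisic acid list, the breakdown genes CYP707A1 and CYP707A3 and the NAC factor gene RD26 rose by 1.75, 2.16 and 2.05, and MARD1 fell, at -1.75. Of 8 measured genes of wound and defence output, TAT3, CLH1 and CORI3 rose by 3.85, 1.32 and 1.17 and ORA59, a factor where jasmonate and ethylene signals meet, fell, at -2.19. The defensin gene PDF1.2 stood at -1.56 and was not called. CORI3 lost its call on leaving out wild type replicate 1 or 3 or cyp78a5,7 replicate 3, at 1.06, 1.07 and 1.02.

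Few of the listed markers of single cell types were measured, such as 5 of 28 for root hairs and 3 of 36 for root endodermis, stele and cap. Those that were called were all lower. The annotated root hair genes EXPA7 and EXPA18 stood at -0.01 and 0.01, and the annotated genes of the stomatal lineage SPCH, MUTE and FAMA at 0.01, 0.26 and -0.53. None of 6 measured genes of guard cells and stomata was called by limma, and none of 3 of seed storage and embryo or of the 4 reference transcripts, which ranged from -0.51 to 0.67. At an unadjusted p under 0.05 the counts in these 3 lists were 3, 0 and 2. In the root hair list 1 of 5 measured genes was lower (AGP22, also a wall protein). In the trichome list 2 of 5 were lower, SIM and ETC1, and this count was 0 with the values as deposited and without wild type replicate 3 or cyp78a5,7 replicate 1. It was 1 on leaving out wild type replicate 1 or 2 or cyp78a5,7 replicate 2. In the list of root endodermis, stele and cap 1 of 3 fell, RGF9, and 2 without wild type replicate 2 or cyp78a5,7 replicate 3. AGP22, ETC1 and RGF9 were named through the study's table. The counts that hold them cannot be set against the 2.64% of all probe sets that were lower. The part of a change in cell types in the results above was not tested.

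Gene families of the annotation, which were not picked for any change, gave a wider view. The 21 families with at least 10 annotated probe sets held 380, of which 19 (5.0%) were higher and 11 (2.89%) lower, against 3.58% and 2.65% of all annotated probe sets. In 8 families none was called, among them the 29 SCPL genes of serine carboxypeptidase-like proteins, of which 3 had an unadjusted p under 0.05 in limma's fit. The UGT family of glycosyltransferases held 47, with 5 higher and 3 lower. The called members ran from UGT72E2 at -1.30 to UGT76E12 at 2.93. The RALFL family of growth-inhibiting peptides had 0 higher and 3 lower of 11, at -1.05 for RALFL24, -1.21 for RALFL27 and -1.46 for RALFL32. In the BGLU family of glucosidases 2 of 20 rose, BGLU40 and BGLU46, by 2.30 and 1.22.

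Compared directly with amp1-13 in the same fit, cyp78a5,7 was higher in 490 probe sets (2.15%) and lower in 401 (1.76%). Both mutants were set against the same wild type arrays, so the changes against wild type share their error. Of the 995 rises, 419 (42.1%) were also higher than in amp1-13, and of the 601 falls, 148 (24.6%) were also lower. The same cyp78a5,7 arrays chose these rises and falls and entered the direct comparison. These shares are raised by that choice and cannot be set against the 2.15% and 1.76%. RD29A, a dehydration-induced gene, read 85.6, 64.7 and 65.1 in amp1-13 and 664, 1693 and 2539 in cyp78a5,7, a direct log2 difference of 4.15 (adjusted p = 0.00173 from limma). G6PD3 read 83.9, 68.6 and 68.6 in amp1-13 and 431, 519 and 784 in cyp78a5,7, a difference of 2.72. In total 12 of the 20 nitrate genes, 6 of the 14 indole genes and 8 of the 24 detoxification genes were higher than in amp1-13, and 0, 0 and 1 were lower. The study's table of genes changed on these arrays named 19, 13 and 11 of these members, so the counts are not independent evidence of a direction. APK2 and MGD1 differed by 1.87 and 1.37. LSU1, ATG8E and HAT2 were lower in cyp78a5,7 than in amp1-13, by differences of -2.23, -1.46 and -1.30. CP12-2 read 837, 833 and 841 in amp1-13, with a direct difference of -2.56 (adjusted p = 0.00153 from limma), and ERF104, an ethylene response factor gene, differed by -2.23. No direct difference was called for EXO, XTH22, CYP81F2, CA1, QQS, EXPA11, AHP3 or RAP2.6L, with direct log2 differences of 0.79, 0.40, -0.48, -0.79, 0.17, -0.13, -0.25 and 0.20, which does not show that the mutants are alike there. Of these, EXO and CA1 passed the adjusted p (0.0249 and 0.0187 from limma) without reaching 2-fold. The call of ERF104 against wild type was lost with an offset of 64 and without wild type replicate 1 or cyp78a5,7 replicate 2, at -0.85, -0.93 and -0.97.

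**Figure D5:**
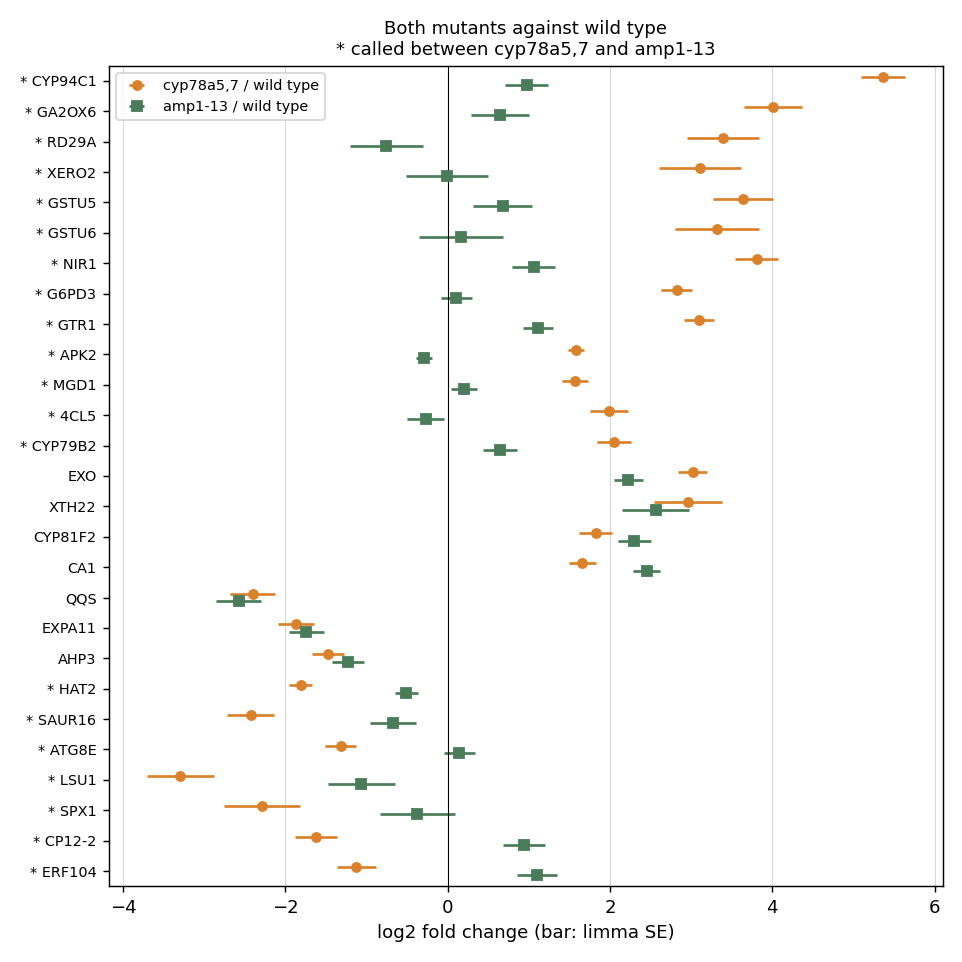
Log2 fold changes against wild type of cyp78a5,7 (circles) and amp1-13 (squares) with limma's SE, for 27 genes chosen after their values were seen. An asterisk marks a gene called between the mutants, such as RD29A with a direct difference of 4.15 and CP12-2 with -2.56.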

How the data were processed

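Whole seedlings of 3 genotypes were measured on 9 Affymetrix ATH1 arrays, of which the 6 of cyp78a5,7 and wild type are compared. The deposited values are signal intensities, computed by the authors with MAS5, per the submitters' processing notes (version not given in the sources used here), on a linear scale with a mean of 100.0 per array without the lowest and highest 2% of values. The array normalization by RMA named in the methods could not be repeated from summarized values. Of 22810 probe sets 64 controls were left out. To log2(signal + 16), quantile normalized, limma 3.58.1 in R 4.3.3 was fitted with genotype as the only term (6 residual and 2.69 prior degrees of freedom), two-sided, with Benjamini-Hochberg adjustment over 22746 probe sets. SEs are limma's. The number of arrays limits the precision, and the table holds no detection calls.

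Probe sets were named by the platform annotation (13513 with 1 gene, symbols updated through RefSeq) or by the probe and locus columns of the study's table of changed genes (820 more). Members and lists were chosen with earlier results of these data known. Named genes were the 15 largest rises and falls among called probe sets with 1 gene, genotypes without overlap and a mean signal of at least 64 in 1 of them, up to 4 called members of each list in each direction, and genes around the mutation. Further genes were named after their values were seen. The fit was tested on simulated data. Replicate numbers did not pair the arrays, and promoters, the mitochondrial genome and ribosomal protein and histone lists were not analysed here. Plots used matplotlib 3.10.9 (Python 3.11.15).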

Additional observations from a re-analysis of the deposited data

How the results depend on the processing

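The counts of higher and lower probe sets were 559 and 215 with an offset of 64, 1784 and 1976 at 1.5-fold, 251 and 39 at 4-fold, and 474 and 356 over probe sets annotated to 1 gene. With no offset 1058 probe sets were lower, against 601. With 1 array left out, 856 to 1136 were higher and 438 to 900 lower. The arrays with the same replicate number did not deviate together (correlations of -0.069 to 0.099 over 3 pairs, -0.116 to 0.087 over the 6 other pairs), and with the replicate block 991 probe sets were higher and 595 lower. No paired analysis was used for the results above, and the block ended 1 call of a named gene, that of MYB90. The 2 counts stayed within 1.5 times of the reported ones with the values as deposited, centring on the 75th percentile, without the dimmest 30% of probe sets, with the 6 arrays alone, and with a variance trend or robust variances. Of 152 called probe sets named by the rule, 113 kept their call under each alternative at 2-fold that tested them. With an offset of 64, 36 lost it, 20 lost it when some array was left out, and 0 changed direction. The 4-fold threshold was left out of these counts, since it ends each call of a smaller change. Of 57 list counts, 41 stayed within 1.5 times whichever array was left out. However, 29 of the 57 moved by over 1.5 times with an offset of 64, and 48 at 4-fold. Over probe sets annotated to 1 gene, 49 did, so most list counts depend on members named through the study's table. Dim probe sets, 34.5% to 38.3% of values per array under the offset, are where a change could be missed, since the dimmest of 5 equal groups had no call. The cause of the other differences was not tested.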
